A study of Homo sapiens with 8 samples.

Results

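The 10 genes described here encode the small nuclear RNA activating protein complex (SNAPc), with its subunits SNAPC1, SNAPC2, SNAPC3, SNAPC4 and SNAPC5, and 5 factors that act with it at promoters, POU2F1, BRF1, BRF2, BDP1 and TBP. They are 10 of the 21059 genes in the table. SNAPC1 was selected on its measured values, because its transcript was far higher at high than at low glucose in these same libraries, so its values are given as a description with no test. The other 9 genes were taken for their known role beside SNAPC1, without regard to size or direction of change but with results of these data already known. All 10 were measured in every library, and all had a mean above 5 CPM (counts scaled to the total reads of a library).

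MDA-MB-157 is an established human breast cancer cell line that lacks the estrogen receptor. Its cells were first conditioned to low glucose and then held without serum for 48 hours. The medium contained 5 mM glucose for the 4 libraries called low glucose and 25 mM for the 4 called high glucose. The comparison models the sugar levels of diabetes in culture, and no library with an osmotic control such as mannitol is among the 8. The replicates are numbered in the labels, which do not say whether they came from separate flasks or experiments, so p-values measure only the spread between these libraries.

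SNAPc binds the proximal sequence element, a short promoter motif upstream of genes for small nuclear RNAs. These RNAs build the spliceosome, and a few have other roles, such as the RNA component of RNase P and the 7SK RNA that restrains transcription elongation. Unusually, the same complex serves a pair of polymerases. RNA polymerase II transcribes most spliceosomal RNA genes, and RNA polymerase III transcribes the U6 and 7SK type, whose promoters also carry a TATA box. In both cases TBP, the TATA-binding protein, is recruited, and at the polymerase III promoters it joins BRF2 and BDP1 in a special form of the factor TFIIIB. POU2F1, also called Oct-1, binds an octamer motif in the distal enhancer of these genes and helps SNAPc onto the promoter. BRF1 takes the place of BRF2 in the TFIIIB of tRNA and 5S ribosomal RNA genes, which do not need SNAPc.

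By their RefSeq positions on GRCh38, the subunit genes lie on 4 chromosomes. SNAPC1 (ENSG00000023608.5) spans chr14:61762420-61796428. SNAPC2 (ENSG00000104976.12) lies at chr19:7920338-7923250, and SNAPC5 (ENSG00000174446.13) at chr15:66489748-66497762. SNAPC3 (ENSG00000164975.15), at chr9:15422876-15466735, shares its chromosome but not its neighbourhood with SNAPC4 (ENSG00000165684.4), at chr9:136375571-136400170. Of the partner factors, POU2F1 (ENSG00000143190.23) lies at chr1:167220885-167427345, BDP1 (ENSG00000145734.19) at chr5:71455651-71578288 and TBP (ENSG00000112592.14) at chr6:170554369-170572859. BRF1 (ENSG00000185024.17) is at chr14:105209286-105315589, on the chromosome of SNAPC1, and BRF2 (ENSG00000104221.12) completes the set. The values below are 1 per gene, as deposited.

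The bases just before the transcription start are shown for SNAPC1, POU2F1 and BDP1, the 3 members with the largest mean differences between the glucose groups. They are the 250 bases upstream of the RefSeq start on GRCh38.p14, written 5′ to 3′ on the strand of the gene, with motif matches in capitals. All 3 genes lie on the plus strand, and the windows are chr14:61762170-61762419, chr1:167220635-167220884 and chr5:71455401-71455650.
SNAPC1: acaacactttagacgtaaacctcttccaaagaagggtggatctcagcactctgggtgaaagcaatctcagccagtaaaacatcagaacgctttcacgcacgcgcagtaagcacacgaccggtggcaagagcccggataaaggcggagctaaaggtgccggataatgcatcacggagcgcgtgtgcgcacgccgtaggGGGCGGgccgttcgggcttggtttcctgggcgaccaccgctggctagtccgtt
POU2F1: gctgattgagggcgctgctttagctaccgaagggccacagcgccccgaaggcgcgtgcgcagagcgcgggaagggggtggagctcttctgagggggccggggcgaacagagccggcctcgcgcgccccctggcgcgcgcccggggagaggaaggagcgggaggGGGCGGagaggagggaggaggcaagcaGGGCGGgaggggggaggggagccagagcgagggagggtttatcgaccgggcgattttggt
BDP1: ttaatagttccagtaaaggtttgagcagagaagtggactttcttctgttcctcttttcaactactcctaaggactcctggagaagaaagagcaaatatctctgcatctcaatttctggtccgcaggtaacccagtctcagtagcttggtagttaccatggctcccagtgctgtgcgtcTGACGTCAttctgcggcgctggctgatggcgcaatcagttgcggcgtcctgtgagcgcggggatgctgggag
The capitals mark the GC box GGGCGG in SNAPC1 and POU2F1 and the cAMP response element TGACGTCA in BDP1.

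RefSeq windows were found for 8 of the 10 members, all but SNAPC4 and BRF2. On both strands 6 motifs were searched, namely the octamer ATTTGCAT, TGACGTCA, the AP-1-like pattern TGANTCA, the E-box CACGTG, the TATA box TATAAA and the GC box GGGCGG. The N in TGANTCA stands for any base, so it is looser than the AP-1 element. The GC box was found in 5 of the 8 windows and in 42.6% of 35116 windows of the same length. SNAPC1 held 1 match, with its first base 53 bases before the start, and POU2F1 held 2, at 87 and 60 bases before it. SNAPC2 held 3, SNAPC3 held 2 and TBP held 1. The cAMP response element stood 72 bases before the start of BDP1 and in 1.65% of all windows. SNAPC5 held a match to the AP-1-like pattern, TGAATCA, with A as the middle base. Of all windows, 6.57% hold that pattern. BRF1 held none of the 6 motifs. The octamer, the motif that POU2F1 itself binds, was in 0 of the 8 windows and in 1.63% of all windows. The E-box (6.34% of all windows) and the TATA box (10.7%) were also in 0 of the 8. These are matches of letters in a fixed window and say nothing of binding. The SNAPC1 window was 57.6% G and C, against 72.4% for POU2F1 and 51.2% for BDP1.

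The libraries held an estimated 9721649 to 12482542 reads, so that 1 read was worth 0.0706 to 0.0889 CPM and 3 reads, taken as the floor, 0.212 to 0.267 CPM. The members ranged from 84 reads for SNAPC4 to 2907 for SNAPC1 in a library. Of the markers of the line, the estrogen receptor gene ESR1 had a mean of 0.121 CPM at low glucose, against 0.0598 CPM at high glucose, both under the floor. The leukocyte gene PTPRC was likewise under it at 0.0997 and 0.123 CPM. The progesterone receptor gene PGR had 4.76 and 5.35 CPM. Of the epithelial markers, KRT8 (131 and 88.3 CPM) and KRT18 (234 and 170.1 CPM) were lower at high glucose and EPCAM (4.50 and 7.0 CPM) was higher. Of the mesenchymal markers, vimentin (VIM, 4091 and 2967 CPM) was lower and ZEB1 (27.0 and 37.4 CPM) higher. The endothelial gene PECAM1 was low but also higher, at 1.0 and 2.13 CPM (limma adjusted p from 0.00104 to 0.00775 for these 6 genes). Their part in the values of the members was not tested.

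One library stood apart in a way that touches the longest members and some shorter ones. In high glucose replicate 1, a gene's difference from the mean of the other 3 high glucose libraries fell with the length of its transcript. Spearman's rho was -0.65 across 11223 genes with a mean of at least 5 CPM, against 0.25, 0.34 and 0.47 in the other 3 and -0.13 to 0.06 at low glucose. The coefficients describe genes within 1 library, which are not independent replicates, and the differences of libraries in 1 group share their reference values. The median log2 difference of replicate 1 was 0.17 for transcripts under 3 kilobases and -0.35 for the 507 genes over 10 kilobases, of which 460 were lower in it. POU2F1 (13843 bases) and BDP1 (11037 bases) are the only members over 10 kilobases. Both were lowest in that library, and both are given with and without it. SNAPC2 (1520 bases) and BRF2 (2560 bases) were highest in it. Without it the log2 difference between glucose groups went from 0.23 to 0.13 for SNAPC2 and from 0.13 to 0.03 for BRF2. The other members under 3 kilobases, SNAPC1, SNAPC5 and TBP, were not highest in it.

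**Figure D1:**
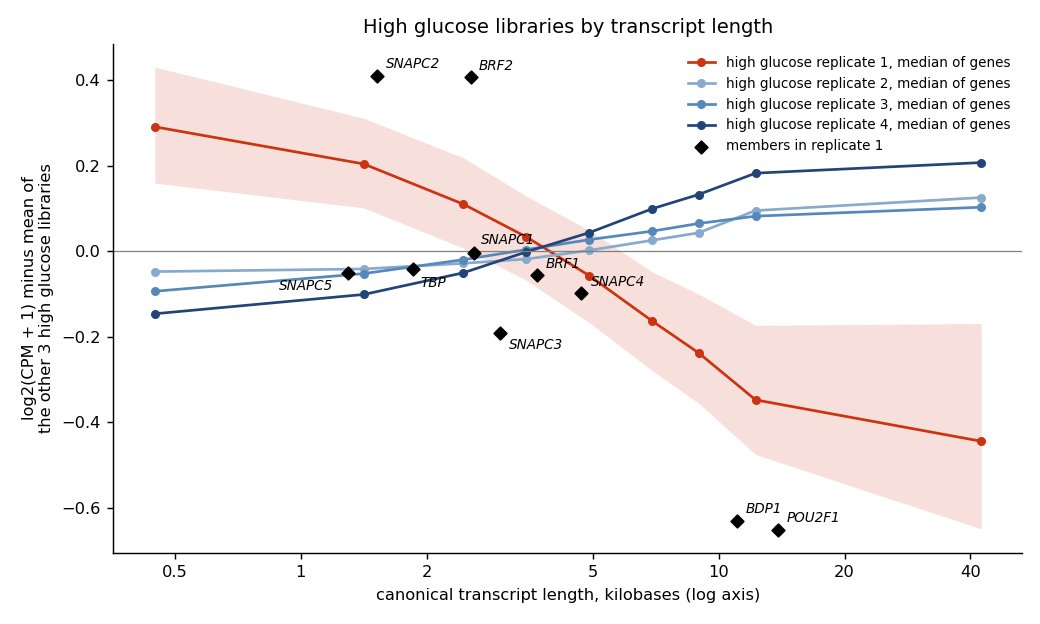
Each line shows 1 high glucose library, with the median over genes of its log2(CPM + 1) minus the mean of the other 3 high glucose libraries plotted against the canonical transcript length in kilobases on a log axis (shading, middle 50% of genes in replicate 1). Black diamonds are the 10 members in replicate 1, where POU2F1 at -0.65 and BDP1 at -0.63 lie lowest, below the middle range of genes of their length, while SNAPC1 lies near the zero line.

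SNAPC1 encodes one of the core subunits that are enough to bind the proximal sequence element. Its CPM was 19.7, 22.1, 21.2 and 20.2 in low glucose replicates 1 to 4, and 205, 191, 209.6 and 217 in high glucose replicates 1 to 4. The groups lay far apart, since the lowest high glucose library was 8.67 times the highest low glucose library. The mean was 20.8 ± 1.06 CPM at low glucose and 206 ± 10.9 CPM at high glucose (SD, n = 4 each), a ratio of 9.90. On the scale of log2(CPM + 1), used for all log2 differences here, high minus low glucose was 3.25 ± 0.05 (SE). That was the largest rise of all 21059 genes, which is how the gene came to be described. High glucose replicate 1, the library with the length trend, stood at 0.996 times the mean of the other 3 for SNAPC1.

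SNAPC4 and SNAPC3 are the other core subunits. SNAPC4 is the largest subunit, carries Myb repeats that contact DNA, and is the one POU2F1 touches. It was measured at 7.17, 9.28, 7.13 and 8.16 CPM at low glucose and at 9.60, 10.0, 11.9 and 9.24 CPM at high glucose. The highest low glucose library exceeded the lowest high glucose library, so the groups overlapped. SNAPC4 rose by 0.33 ± 0.11 (log2, SE; limma adjusted p = 0.0397, n = 4 each), a ratio of means of 1.28. The call was lost without low glucose replicate 1 or 3 (adjusted p = 0.0975 in both limma fits), without low glucose replicate 4 (0.0706), and without high glucose replicate 1 (0.0540), 2 (0.0783) or 3 (0.0852). Over all 14 alternatives the adjusted p ran from 0.00986 to 0.0993.

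SNAPC3, which carries a zinc-binding domain and takes part in DNA contact, had 58.1, 60.1, 59.5 and 61.5 CPM at low glucose. At high glucose it had 50.9, 57.6, 55.1 and 62.3 CPM. The groups overlapped, and the difference of -0.09 ± 0.06 did not pass the test (limma adjusted p = 0.284).

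The accessory subunits SNAPC2 and SNAPC5 are not needed for DNA binding by the core. SNAPC2 had 14.1, 14.5, 16.2 and 13.99 CPM at low glucose and 21.7, 16.7, 15.6 and 16.1 CPM at high glucose. Replicate 1 was the highest of the high glucose libraries at 1.35 times the mean of the other 3, and the groups overlapped. The log2 difference of 0.23 ± 0.11 did not pass (limma adjusted p = 0.128).

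SNAPC5, the smallest subunit, had 13.4, 10.2, 11.3 and 10.5 CPM at low glucose and 8.83, 8.37, 9.81 and 9.43 CPM at high glucose. Every high glucose library was below every low glucose library, by a gap of only 1.04 times. SNAPC5 fell by 0.28 on the log2 scale (SE 0.09; limma adjusted p = 0.0391), from 11.3 ± 1.43 to 9.11 ± 0.639 CPM (SD, n = 4). The call was lost without low glucose replicate 1 (adjusted p = 0.0579) or 3 (0.0820) and without high glucose replicate 1 (0.0791), 2 (0.0958) or 4 (0.0629) in limma. It was also lost with median-of-ratios scaling (0.0670), quantile normalization (0.194) and removal of the length trend (0.0524), always with a lower value at high glucose (adjusted p from 0.0218 to 0.194 over the 14 alternatives).

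**Figure D2:**
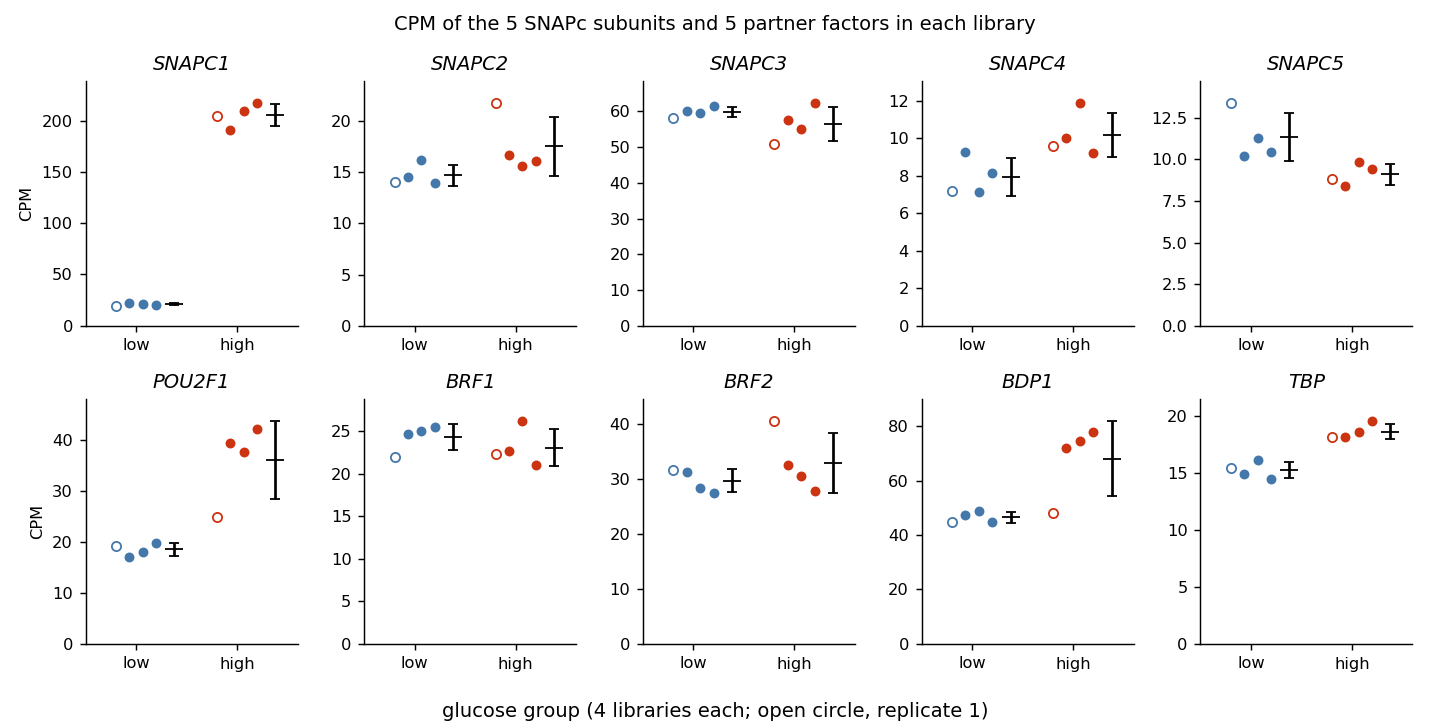
CPM of each member in each library, on axes that start at 0 and differ between panels; circles are the 4 libraries of a group (open, replicate 1) and bars are the mean ± SD. SNAPC1 goes from about 20.8 to 206 CPM, whereas POU2F1 and BDP1 show 1 high glucose library, replicate 1, well below the other 3.

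Among the partner factors, POU2F1 had the largest difference. Its CPM was 19.2, 17.1, 18.0 and 19.9 at low glucose and 24.9, 39.4, 37.6 and 42.2 at high glucose. All high glucose libraries were above all low glucose libraries, with replicate 1 at 0.627 times the mean of the other 3. POU2F1 rose by 0.90 ± 0.16 (log2, SE; limma adjusted p = 0.00298), from 18.5 ± 1.25 to 36.0 ± 7.65 CPM (SD, n = 4), a ratio of 1.94. Without high glucose replicate 1 the log2 difference was 1.06 (limma adjusted p = 4.86e-05, within 3.95e-06 to 0.0156 over the 14 alternatives), and the mean at high glucose was 39.7 ± 2.32 CPM (SD, n = 3). The part of transcript length in the low value of replicate 1 was not tested for this gene.

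TBP, used by all nuclear RNA polymerases, had a narrow range in both groups. Its values were 15.5, 14.9, 16.1 and 14.5 CPM at low glucose and 18.2, 18.2, 18.6 and 19.6 CPM at high glucose. The groups did not overlap. TBP rose by 0.27 ± 0.04 (log2, SE; limma adjusted p = 0.00162), a ratio of 1.22, and passed the test under all 14 alternatives (0.25 to 0.35).

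BDP1, the largest TFIIIB subunit, is shared by both forms of that factor. It had 44.8, 47.4, 49.0 and 44.9 CPM at low glucose and 48.0, 72.0, 74.6 and 77.9 CPM at high glucose. High glucose replicate 1 fell inside the low glucose range at 0.641 times the mean of the other 3, and those 3 were well above it. BDP1 rose by 0.52 ± 0.15 (log2, SE; limma adjusted p = 0.0256), a ratio of 1.46. Without replicate 1 it was 0.67 (limma adjusted p = 5.98e-05), with a mean of 74.9 ± 2.99 CPM (SD, n = 3) against 46.5 ± 2.04 CPM (SD, n = 4) at low glucose. The call was lost without low glucose replicate 1 (adjusted p = 0.0633), 2 (0.0544) or 4 (0.0629) and without high glucose replicate 2 (0.0661), 3 (0.0676) or 4 (0.0639) in limma.

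The alternative TFIIIB subunits BRF2 and BRF1 did not pass the test. BRF2 had 31.7, 31.2, 28.4 and 27.5 CPM at low glucose and 40.4, 32.5, 30.6 and 27.8 CPM at high glucose, where replicate 1 was the highest. Its log2 difference was 0.13 ± 0.11 (limma adjusted p = 0.403). BRF1 had 22.0, 24.7, 25.1 and 25.5 CPM at low glucose and 22.3, 22.7, 26.1 and 21.1 CPM at high glucose. The difference of -0.08 ± 0.07 (limma adjusted p = 0.456) had a different sign from that of BRF2, and both pairs of groups overlapped. A p that misses the threshold does not show that these levels were equal.

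Of the 9 members other than SNAPC1, 5 passed an adjusted p of 0.05, 4 of them higher (SNAPC4, POU2F1, BDP1 and TBP) and 1 lower (SNAPC5). Of all 21059 genes, 46.8% passed, 22.0% higher and 24.8% lower. Among the 11297 genes with a mean of at least 5 CPM, to which all members belong, 66.9% passed, 33.6% higher and 33.3% lower. The 5 of 9 (55.6%) therefore lay between these backgrounds. The groups did not overlap for 3 of the 9 members (POU2F1, SNAPC5 and TBP), against 44.5% of all genes and 65.0% of those with at least 5 CPM. The median log2 difference of the 9 was 0.23 and that of all genes -0.01. Without high glucose replicate 1, 3 of the 9 passed (POU2F1, BDP1 and TBP), against 48.2% of all genes. The share among genes of at least 5 CPM, 66.9% with all libraries, is not given for that fit.

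Levels can be set against each other only per length, here as CPM per kilobase of the canonical transcript. At low glucose SNAPC3 was the highest at 19.9 ± 0.477 (SD, n = 4), followed by BRF2 (11.6), SNAPC2 (9.67), SNAPC5 (8.75), TBP (8.22), SNAPC1 (8.02), BRF1 (6.62), BDP1 (4.22), SNAPC4 (1.69) and POU2F1 (1.34). In that order the library ranges of SNAPC2 and SNAPC5, of SNAPC5 and TBP and of TBP and SNAPC1 overlapped, so those neighbours were not separated. SNAPC4, the scaffold of the complex, was the least abundant subunit transcript in both groups.

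At high glucose SNAPC1 stood first at 79.4 ± 4.19 CPM per kilobase, above SNAPC3 (18.8), BRF2 (12.8), SNAPC2 (11.5), TBP (10.0), SNAPC5 (7.03), BRF1 (6.28), BDP1 (6.17), POU2F1 (2.60) and SNAPC4 (2.17). For neighbours in that order, ranges overlapped between BRF2 and SNAPC2, SNAPC2 and TBP, SNAPC5 and BRF1, BRF1 and BDP1, and POU2F1 and SNAPC4. SNAPC5 (6.46 to 7.57) and BDP1 (4.35 to 7.06), which are not neighbours, overlapped too. Among 11223 genes of at least 5 CPM with a length, SNAPC1 went from rank 6231 to rank 762 by this measure. SNAPC3 was at ranks 3071 and 3329.

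The make-up of the 5 subunit transcripts changed with SNAPC1. SNAPC1 made up 16.7% ± 0.813 of their summed CPM per kilobase at low glucose and 66.7% ± 0.939 at high glucose (SD, n = 4). SNAPC3 went from 41.5% to 15.8%, SNAPC2 from 20.1% to 9.71%, SNAPC5 from 18.2% to 5.91% and SNAPC4 from 3.52% to 1.83%. Shares add to the whole, so a higher share of SNAPC1 lowers the others. Of these 4, only SNAPC5 was also called lower in its own level. The ratio of SNAPC1 to SNAPC3 CPM was 0.329 to 0.367 in the low glucose libraries and 3.32 to 4.03 in the high glucose libraries. Its ratio to SNAPC4 was 2.38 to 2.97 and 17.6 to 23.5. These values are transcripts, and the amounts of the proteins in the complex were not measured.

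**Figure D3:**
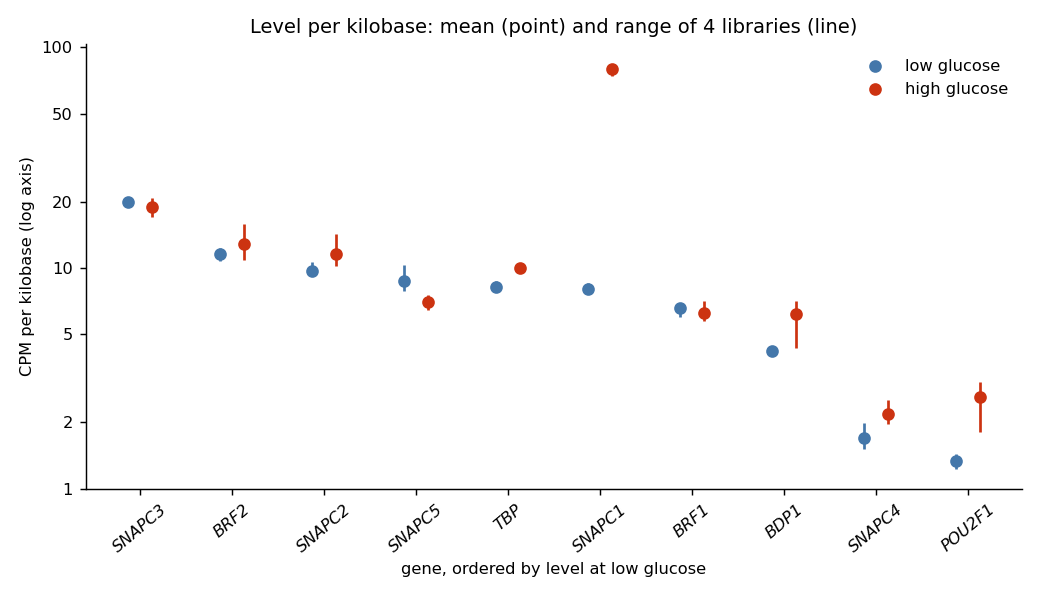
CPM per kilobase of canonical transcript on a log axis for the 10 members, ordered by level at low glucose (points, mean; lines, range of 4 libraries per group). SNAPC1 moves from sixth at 8.02 to first at 79.4, while the other 9 genes stay within 1.34 to 19.9 at low and 2.17 to 18.8 at high glucose.

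Genes that overlap the members bear on how reads were assigned. SNAPC1 shares 565 of its 2593 exonic bases (21.8%) with a long noncoding gene on the same strand, ENSG00000258964.1, which had 0 to 0.132 CPM at low glucose, against 0 to 1.42 CPM at high glucose. Of the 31-base words of the SNAPC1 transcript, 26.9% occur in that gene or another. Reads in the shared bases could be given to either gene, and how they were divided was not tested. BRF2 shares 60.0% of its exonic bases with ADGRA2 on the opposite strand, whose mean went from 439 to 138 CPM. Whether the counts behind the table used the strand is not stated for the cell lines, so the BRF2 value is uncertain. SNAPC5 shares 23.6% of its exonic bases with the same-strand noncoding gene ENSG00000261351 (0.325 to 0.992 CPM over the 8 libraries), and 8.72% with MAP2K1 on the opposite strand (28.7 and 44.4 CPM). BRF1 shares 4.90% with BTBD6 and 3.22% with PACS2, also opposite. After SNAPC1, the shares of 31-base words that occur in transcripts of other genes were 6.48% for SNAPC5, 4.48% for SNAPC3, 3.23% for TBP, 0.981% for BDP1, 0.905% for POU2F1, 0.0429% for SNAPC4 and 0 for SNAPC2, BRF1 and BRF2.

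Other genes of the neighbourhood were examined, within 500 kilobases of SNAPC1. Of 10 in the table, 3 had a mean of at least 1 CPM. HIF1A, the oxygen-regulated subunit of hypoxia-inducible factor, ends 14.2 kilobases before SNAPC1 on the same strand. It had 173, 168, 179 and 174 CPM at low glucose and 201, 223, 224 and 241 CPM at high glucose, with no overlap. HIF1A rose by 0.35 ± 0.05 (log2, SE; limma adjusted p = 0.00142), a ratio of 1.28.

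PRKCH, a protein kinase C gene 211 kilobases before SNAPC1, had 0.583, 0.414, 0.764 and 0.583 CPM at low glucose and 1.69, 1.43, 1.15 and 1.69 CPM at high glucose. It rose by 0.65 ± 0.10 (limma adjusted p = 0.00122), at a level of only 5 to 24 reads in a library. SYT16, a synaptotagmin gene 15.5 kilobases after SNAPC1, did not pass (0.27 ± 0.15, limma adjusted p = 0.199). The third neighbour called was HIF1A-AS2, an antisense RNA of HIF1A named after its values were seen. It was at 0 in 3 low glucose libraries and at 0.0728 CPM in the other, under the floor, and at 0.0825 to 0.711 CPM at high glucose (limma adjusted p = 0.0245), a call lost without low glucose replicate 1, 2 or 3 (limma adjusted p = 0.0588 to 0.0591) and without high glucose replicate 1 (0.0549) or 2 (0.0571). Thus 3 of 10 neighbours passed, against 46.8% of all genes, but 4 of the 10 were under 3 reads in every library. In the fit limited to genes with a mean of at least 1 CPM, 2 neighbours passed. Of all genes in that fit, 67.0% did.

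The transcripts that SNAPc helps to make could hardly be read in these libraries. The methods describe libraries from polyadenylated RNA for the tumors and do not name the library type for the cell lines. Of 33 such RNAs listed, 3 were in the table. RN7SK, the 7SK RNA, had 1.0, 1.16, 0.680 and 1.46 CPM at low glucose and 1.67, 3.75, 1.40 and 2.22 CPM at high glucose. The groups overlapped, and the log2 difference of 0.62 ± 0.23 did not pass (limma adjusted p = 0.0627). RMRP, the RNA of RNase MRP, and RPPH1, the RNA of RNase P, had at most 0.250 and 0.146 CPM, at or under the floor. RN7SK was thus above the floor in all 8 libraries but did not pass, and for the other 2 no difference was detectable at this depth.

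The wider machinery was described with 13 lists of 156 genes, compiled from general knowledge of snRNA transcription and snRNP assembly, of which 126 were in the table. Of these 126, 78 passed the test (61.9%), 50 higher and 28 lower. Of the 119 with a mean of at least 5 CPM, 77 passed (64.7%), close to the 66.9% of all such genes. Of all such genes, 33.6% were higher and 33.3% lower, the background for the counts by list below. The median log2 difference over the 126 was 0.10 against -0.01 for all genes. Without high glucose replicate 1, 87 of the 126 passed, and in the same fit 10156 of all 21059 genes did (48.2%, against 46.8% with all libraries). Counts by list follow, with the genes that the naming rule selects and others named after their values were seen.

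Activators and general factors of the promoter came first. Of 5 activators of snRNA genes, 3 passed, 1 higher and 2 lower. ZNF143, the zinc finger activator of many snRNA genes, was named after its values were seen and rose from 16.8 to 26.9 CPM (0.65 ± 0.07, limma adjusted p = 0.000337). Its close relative ZNF76 fell from 29.5 to 15.4 CPM, by 0.90 on the log2 scale (limma adjusted p = 6.0e-05). GTF2I, a factor that binds initiator elements and has near-identical copies in the genome, fell from 248 to 164 CPM, by 0.60. The blood cell relative of POU2F1, POU2F2, was at or near the floor in both groups, with means of 0.158 and 0.264 CPM.

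Of 7 general initiation factors of RNA polymerase II, 5 were higher and 0 lower. They included both TFIIA genes, GTF2A1 (56.3 to 67.5 CPM) and GTF2A2 (34.0 to 45.3 CPM). TFIID, the complex of TBP with its associated factors (TAFs), had the highest median of the lists at 0.48. Of its 15 genes besides TBP, 9 were higher and 3 lower.

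TAF3, a reader of the active promoter mark on histone H3, had 22.3, 22.7, 25.9 and 23.0 CPM at low glucose, against 58.9, 58.3, 66.5 and 70.8 CPM at high glucose. It rose by 1.40 ± 0.08. TAF4B rose by 1.41 ± 0.11 from a low 1.49 to 5.54 CPM, TAF5 by 1.15 ± 0.09 from 4.38 to 10.9 CPM, and TAF9 by 0.84 ± 0.04 from 47.2 to 85.0 CPM (limma adjusted p from 8.19e-06 to 6.92e-05 for these 4 genes). The 3 lower genes were TAF9B, TAF10 and TAF12, named after their values were seen, by 0.16 to 0.22 on the log2 scale.

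On the polymerase III side, TFIIIA and TFIIIC serve promoters inside genes, which do not use SNAPc. Of these 7 genes, 1 was higher and 3 lower, with GTF3A at 25.6 and 20.6 CPM and GTF3C2 at 94.2 and 78.6 CPM. Of 14 genes for polymerase III subunits and its repressor MAF1, 7 were higher and 2 lower. POLR3F rose from 16.8 to 27.3 CPM and POLR1C, a subunit shared with polymerase I, from 21.5 to 35.5 CPM. The lower ones, named after their values were seen, were MAF1 (117 to 102 CPM) and POLR3GL (17.9 to 8.70 CPM). POLR3GL and POLR3G are alternative subunits, and POLR3G, at 1.0 and 1.66 CPM, did not pass (limma adjusted p = 0.101).

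Elongation and 3′ processing genes held higher and lower calls, as did all genes of at least 5 CPM (33.6% higher and 33.3% lower). Of 7 genes listed with the little elongation complex, which serves polymerase II at snRNA genes, 3 were higher and 2 lower. EAF1 rose by 1.16 ± 0.05 (38.2 to 86.6 CPM) and ELL2 by 0.50 ± 0.04 (77.3 to 109 CPM). ICE2 and COIL, named after their values were seen, fell by 0.56 and 0.23. COIL encodes coilin, which is not a subunit of that complex. Of 14 genes of Integrator, the complex that cleaves the 3′ ends of polymerase II snRNAs, 3 were higher and 7 lower, with the lowest median of the lists (-0.17). INTS3 fell from 115.9 to 69.5 CPM, by 0.73, whereas INTS7 rose from 51.2 to 64.3 CPM. The catalytic subunit INTS11, named after its values were seen, fell from 55.4 to 41.8 CPM.

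Genes that act on the RNA after transcription also held calls in both directions, to be read beside the same background. Of 7 genes for cap binding, export and import of snRNAs, 5 were higher and 1 lower. The export adaptor PHAX rose from 36.4 to 46.7 CPM, and SNUPN, the import adaptor for the trimethylated cap, fell from 24.8 to 16.6 CPM. Of 13 genes of the SMN complex and Sm assembly, 4 were higher and 2 lower. GEMIN8 fell by 1.14 ± 0.08 on the log2 scale, from 14.7 to 6.10 CPM. SMN1 rose from 21.2 to 36.1 CPM, but it has a near-identical copy, SMN2, so the division of reads between them is uncertain.

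Of 8 Sm protein genes, 4 were higher and 1 lower, with SNRPD1 going from 80.9 to 92.7 CPM and SNRPD3 from 70.9 to 93.3 CPM. Of 14 genes whose products bind U6 or 7SK RNA, 5 were higher and 2 lower. HEXIM1, the protein that with 7SK RNA inhibits the elongation factor P-TEFb, rose from 19.3 to 35.2 CPM (0.84 ± 0.07). LSM3 rose from 39.2 to 58.1 CPM. Of 12 proteins specific to single snRNPs, 3 were higher and 3 lower, among them PDCD7 (24.9 to 33.3 CPM) and ZCRB1 (45.6 to 27.5 CPM), both of the minor spliceosome.

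**Figure D4:**
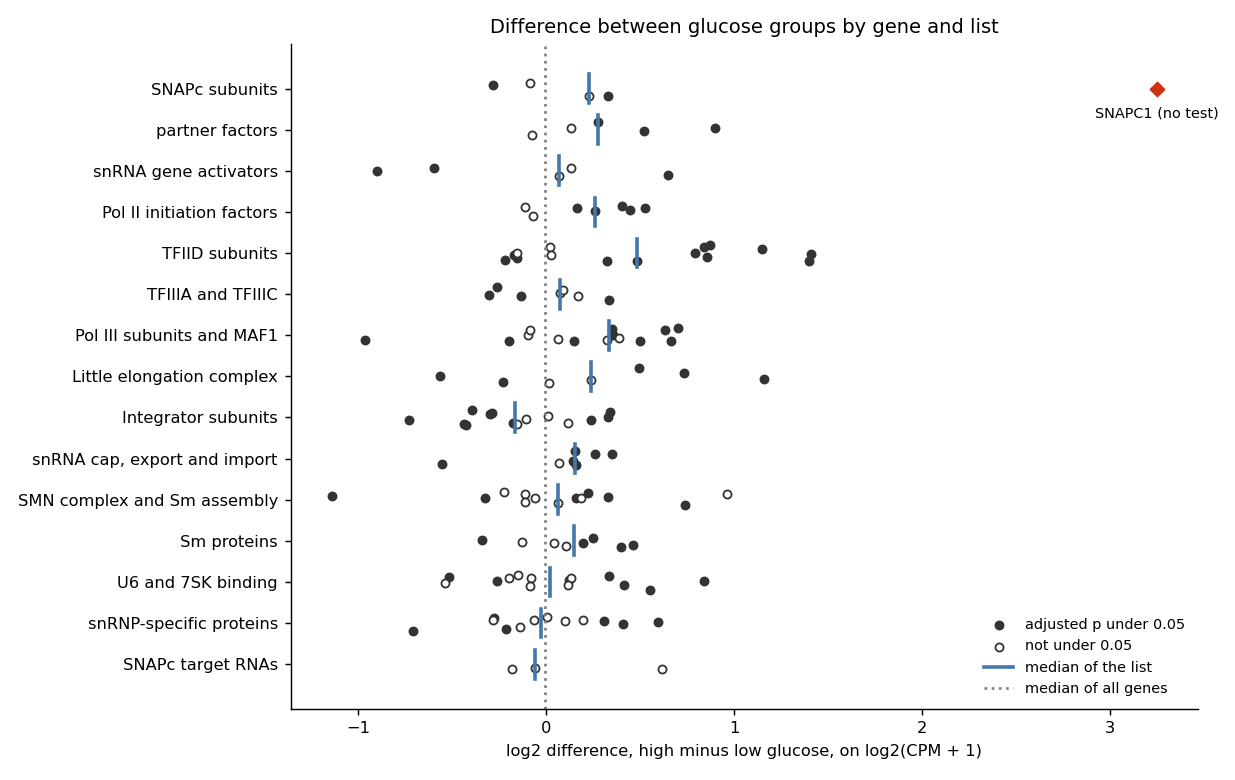
Each circle is 1 gene, placed by its log2 difference (high minus low glucose, log2(CPM + 1)) in the row of its list, filled where the adjusted p is under 0.05; blue bars are list medians (that of the subunits includes SNAPC1), and the dotted line is the median of all genes at -0.01. SNAPC1 (diamond, no test) lies at 3.25, and the next highest gene of any row is TAF4B at 1.41.

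The genes with a pattern most like that of SNAPC1 were found by the Euclidean distance between profiles of log2(CPM + 1) minus the low glucose mean, over the 8 libraries and 11296 genes of at least 5 CPM. The nearest were TNFRSF10D, a decoy receptor for the death ligand TRAIL (distance 1.11), LYPD1 (1.12), the growth factor FGF2 (1.27) and the purine salvage enzyme PNP (1.40). TNFRSF10D had 6.67, 8.03, 8.58 and 6.56 CPM at low glucose, against 55.4, 53.4, 51.2 and 55.6 CPM at high glucose, a log2 difference of 2.71. FGF2 had 38.6, 41.8, 42.6 and 38.6 CPM at low glucose, against 240.4, 261, 243 and 269.9 CPM at high glucose, a log2 difference of 2.62. All 4 lay below SNAPC1, at 2.58 to 2.73. Since likeness was measured on the contrast itself, these differences are a description of the genes nearest to SNAPC1 and carry no test. In a bulk culture, more cells that express a gene and more RNA per cell cannot be told apart.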

How the data were processed

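The authors deposited 1 table of CPM, read counts per gene scaled to library size after TMM normalization in edgeR, per the study's methods. Those methods, written first for tumors, give stranded poly(A) libraries and an hg19 alignment, while the submitters' processing notes name hg38, so the build is not established. Low values were whole reads in only 72.0% to 73.3% of cases, and no count model was used. Depths and floors cover counting error only, whereas SD and SE measure the spread between libraries.

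Values were analysed as log2(CPM + 1) with limma 3.58.1 in R 4.3.3 (lmFit, eBayes with trend, 2-sided, no covariate), with Benjamini-Hochberg adjustment over all 21059 genes and a threshold of 0.05. The pseudocount understates changes of low genes. The steps were also run on simulated counts drawn around the low glucose means, with few changed genes and no length trend. That run therefore does not test them under the length trend or the many changed genes of these libraries. The 18 pseudoautosomal Y copies, identical to their X copies, were left out. Lengths, overlaps and distances came from GENCODE 44 on GRCh37, and positions and upstream sequences from RefSeq on GRCh38.p14.

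The members and lists were chosen with earlier results of these data known. Named from each list were at most 2 genes with the smallest adjusted p and a mean of at least 5 CPM, and genes whose groups lay at least 2-fold apart; of neighbours, those of at least 1 CPM; and the 5 genes nearest to SNAPC1, of which 1 is not reported here. Other genes are said to be named after their values were seen. Alternatives were another pseudocount, a filter on low values, other scalings, a replicate block, removal of the length trend and leaving out each library.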

Additional observations from a re-analysis of the deposited data

Results flagged for a closer look

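In groups of 4 libraries, a value was singled out where its gap to the nearest other library made up more of the group's whole range than Dixon's critical value at the 95% level. The members, all 10 neighbours, the other genes with values in the text and the read totals gave 156 groups, of which 12 met this. For continuous values, 1 in 20 by chance gives about 7.8. Groups at or near the floor do not hold such values, so 12 and 7.8 cannot be weighed against each other. None of the 10 members was among them.

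ELL2 in high glucose replicate 4 was at 117 CPM against 106.6 to 107 CPM in the other 3 (ratio of gap to range 0.922). POLR3GL in the same library was at 7.38 CPM against 9.07 to 9.25 CPM (0.907). VIM in high glucose replicate 1, the library with the length trend, was at 3282 CPM against 2856 to 2869 CPM (0.969). GEMIN8 in low glucose replicate 1 was at 16.7 CPM against 13.8 to 14.2 CPM (0.864), and LYPD1 in low glucose replicate 3 at 4.91 CPM against 3.52 to 3.68 CPM (0.883). PECAM1 in low glucose replicate 4 was at 1.24 CPM against 0.911 to 0.934 CPM (0.929). The estimated read total of that library was 12104244 against 10389651 to 10622968 in the other 3 (0.864).

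The remaining cases were at or near the floor of 3 reads. RPPH1 in low glucose replicate 4 was at 0.146 CPM against 0.0828 to 0.0849 CPM (0.966), and ESR1 in low glucose replicate 2 was at 0 against 0.146 to 0.170 CPM (0.858). For HIF1A-AS2 in low glucose replicate 4 (0.0728 CPM) and the neighbours LINC00643 (0.0825 CPM) and LINC01303 (0.330 CPM) in high glucose replicate 3, the other 3 libraries of the group were at 0 (ratio 1).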

How the results depend on the processing

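The log2 differences of the 10 members kept their sign under all 14 alternatives. The filter on low values, the replicate block and removal of the length trend could not change these differences. Those fits bear only on the p-values. SNAPC1 stayed between 3.22 and 3.30, and POU2F1 and TBP passed the test in all 14. The number of the 9 other members called, 5, became 4 with median-of-ratios scaling, 6 with quantile normalization (SNAPC2 and SNAPC3 gained, SNAPC5 lost) and 2 to 4 when 1 library was left out. With the replicate number as a block it was 3, SNAPC4 (adjusted p = 0.0993) and SNAPC5 (0.0728) being lost. Same-numbered libraries did not deviate together (r = 0.07, -0.03, 0.01 and -0.04). Such values cannot exclude a paired layout, and the labels do not state one. SNAPC2 also passed with the length trend removed (0.0354), a fit whose p-values are slightly too small because group means were kept. The list genes called, 78 of 126, ranged from 65 to 87 when a library was left out and were 68 with the block. Of all genes, 46.8% passed in the main fit, 46.3% with median-of-ratios scaling, 45.5% with quantile normalization and 42.4% with the block. Leaving out 1 library gave 42.3% to 48.2% of all genes. Fewer genes at large thus passed with the block and in most fits that left out 1 library. The share of SNAPC1 among the subunits at high glucose, 66.7%, was 67.8% with the longest transcripts. The 3 neighbours called ranged from 2 to 3.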
